A study of Mus musculus with 12 samples.

Results

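The tetraspanins described here are Cd9, Cd63, Cd81, Cd82, Cd151, Tspan3, Tspan4, Tspan5, Tspan6 and Tspan9, 10 genes picked by symbol from a family of 31 listed tetraspanins. Of these 10 genes 9 had a row among the 17995 genes of the expression table, and Tspan6 was not analysed here. RNA-seq had been performed on 12 libraries of 2 mouse cell lines that the labels give as strain IRC. C18-4 is a spermatogonial stem cell line and TM4 is a Sertoli cell line. In each line 3 libraries came from cells given the control shRNA, shNC, and 3 from cells given shM5, shRNAs against the muscarinic acetylcholine receptor M5. The study cloned shM5 and shNC into the same lentiviral vector, gave the 3 shRNAs against M5 as a mixture and grew stably transfected cells, so the effects of single shRNAs cannot be told apart. The question of the design was how the expression profile of each line changed after M5 knockdown. The genes were chosen by family name with the values of these 12 libraries already known. Their own levels and differences are therefore given as a description. Where the number of members called by a fit is printed, it stands beside the share of all genes called. It is not read as a test of the members, and tests are read only for genes of other lists. Those lists were also chosen with earlier results of these data known, so their p-values are not free of that choice.

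Tetraspanins are small membrane proteins that cross the membrane 4 times and carry a large extracellular loop. They gather integrins, immunoglobulin-like proteins, proteases and one another into membrane microdomains, and several travel into extracellular vesicles, for which Cd9, Cd63 and Cd81 are the usual markers. Cd9 and Cd81 bind the proteins of Igsf8 and Ptgfrn, and in the germ line Cd9 on the egg is needed for fusion with sperm. Cd151 binds laminin-binding integrins, Cd82 restrains cell movement, Cd63 cycles between the surface and late endosomes, and Tspan5 belongs to the subgroup that escorts the protease Adam10.

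The family is recognised by a cysteine-cysteine-glycine motif in the large extracellular loop. The coding sequence around these codons is shown for the 9 members with values, and for Tspan11 and Upk1b, the relatives that separated the lines, because it shows what the genes share beyond their names. Each run is 30 bases, 5′ to 3′ on the coding strand, read from GENCODE M21 transcripts of the GRCm38 build, and the 9 bases of the 3 codons are in capitals.
Cd9: gcgttggacTGCTGTGGCatagctggtcct
Cd81: acgctcaacTGTTGTGGCtccaacgcactg
Cd151: gagttccacTGTTGTGGCagcaacaactct
Cd82: caggtcaagTGCTGTGGCtgggtcagccac
Cd63: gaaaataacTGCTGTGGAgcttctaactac
Tspan3: cagttgcacTGTTGTGGAattcataactat
Tspan4: gatttccgaTGCTGTGGAgtttccaattac
Tspan5: tattggcagTGCTGTGGGgcttttggagct
Tspan9: gagatgcggTGTTGTGGGgtcactgactac
Tspan11: gacttcaaaTGCTGTGGCagtaacagctca
Upk1b: caggaccacTGCTGTGGTgtaaacggtccg

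The first cysteine codon of the run shown was codon 145 in Cd63 and codon 156 in Cd81. It lay between these in the other members. Cd9, Cd63 and Cd81 each held 2 in-frame matches. Where a gene held 2, the match nearest codon 150 was shown, so the similar position is partly built in. The match not shown was at codon 76 in Cd9 and codon 72 in Cd63. In all 11 runs an exon ended after the first 3 bases, so the motif followed an intron at the same place in each gene. An in-frame match to the motif anywhere in the coding sequence was present in 31 of 31 tetraspanins and in 2.56% of 21522 protein-coding genes. Outside the motif the coding sequences differed, and the longest identical run shared by any pair of members was 22 bases, in Cd9 and Cd81.

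In the GRCm38 build Cd9 lies on the minus strand of chr6:125460266-125494791 and Tspan9 on the minus strand of chr6:127961396-128143594. Cd151, at chr7:141467392-141471473, and Tspan4, at chr7:141475240-141493427, are both on the plus strand and 3766 bases apart. Cd81 is further along the same chromosome on the plus strand, at chr7:143052739-143067934. Cd63 is at chr10:128900989-128912822 on the plus strand and Cd82 at chr2:93419111-93463140 on the minus strand. Tspan3 is at chr9:56131725-56165477 on the minus strand and Tspan5 at chr3:138742195-138907905 on the plus strand. The build the authors used is not given in the sources used here, and these positions serve only to place the genes. Exons of Cd9, Cd81 and Cd151 overlap annotated noncoding genes on the opposite strand, and those of Tspan4 overlap Chid1. The library preparation described does not mark strand, so reads of such partners cannot be told apart. Processed copies named Cd9-ps and Cd63-ps are also annotated and had no row, and reads shared with them make the levels of Cd9 and Cd63 uncertain to that extent.

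Values are RPKM, read numbers scaled to gene length and library size, so levels of different genes are compared per length. The targeted gene, Chrm5, was listed at 0 in 10 libraries and at 0.01 RPKM in C18-4 shNC replicate 2 and TM4 shNC replicate 1. Its RNA therefore does not check the labels. The paper reports less M5 protein after shM5 in both lines by immunofluorescence, which these RNA values do not address. In C18-4 libraries the germ line markers Ddx4, Dazl, Ret, Zbtb16, Kit and Stra8 were at 0.05 RPKM or less, and of 12 germ cell markers with a row 3 reached a mean of 1 RPKM, Etv5, Id4 and Uchl1, the last at 76.8 to 140.02. The Sertoli cell marker Wt1 was at 53.9 to 72.3 RPKM and the epithelial keratin Krt18 at 68.3 to 100.8 in the same libraries. In TM4 cells Krt18 was at 0.05 RPKM or less. Of 12 Sertoli cell markers with a row 6 reached a mean of 1 RPKM in TM4 shNC libraries, among them Sox9, Gata4 and Kitl. Wt1, Amh, Cldn11 and Clu were at 0.19 or less in all TM4 libraries. In C18-4 shNC libraries also 6 of 12 reached it, so the count does not separate the lines. The list summed to 77.2 to 78.8 RPKM in C18-4 shNC and to 36.1 to 70.1 in TM4 shNC libraries. TM4 shNC replicates 1 and 2 stood apart from the other 4 TM4 libraries. Across genes they differed from TM4 shNC replicate 3 by 0.64 (root mean square of log2 differences), against 0.20 to 0.26 between that replicate and the shM5 libraries. A list of 6 ATF4-response genes, which mark amino acid and endoplasmic reticulum stress, summed to 1371 and 1359 RPKM in them, to 563 in shNC replicate 3 and to 506 to 526 in the shM5 libraries. A list of 7 fibroblast genes summed to 1172 to 2036 RPKM in TM4 shNC and to 2081 to 2154 in TM4 shM5 libraries. Its sum was 1011 to 1174 in C18-4 shNC and 1017 to 1245 in C18-4 shM5 libraries. In C18-4 cells replicate 3 of both groups stood apart in the sum of the ATF4-response genes, at 1095 and 1051 against 659 to 685. In RNA from whole cultures, fewer cells of a type and less RNA per cell cannot be told apart. Nothing in the labels says that replicates were separate cultures, so p-values measure only the spread between these samples, which may be technical.

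Cd63 was the highest tetraspanin in every library. In C18-4 shNC libraries it was at 507, 474 and 571 RPKM, and in TM4 shNC libraries at 728, 742 and 629.97 RPKM. It ranked 146th by mean among all genes in the former group and 106th in the latter. The 29 tetraspanins with a row summed to between 1216 and 1437 RPKM per library, and the 9 members made up 75.4% to 77.8% of that sum in C18-4 cells and 88.8% to 89.8% in TM4 cells. Cd63 alone held 39.6%, 39.0% and 41.7% of it in C18-4 shNC libraries and 34.2%, 33.7% and 34.7% in C18-4 shM5 libraries. In TM4 shNC libraries the share was 56.1%, 56.9% and 46.2%, and in TM4 shM5 libraries 43.7%, 43.9% and 44.9%. Thus the Cd63 share was lower with shM5 in all libraries of both lines, and TM4 shNC replicate 3 lay closest to the shM5 range.

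**Figure D1:**
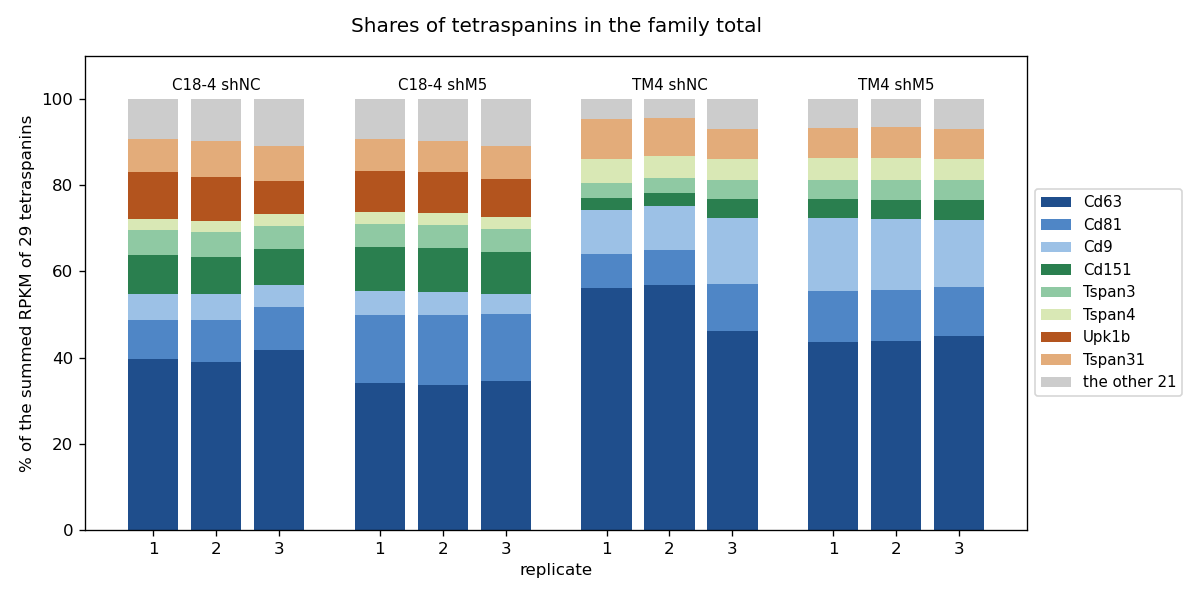
Share of single tetraspanins in the summed RPKM of 29 tetraspanins, in percent, with 1 bar for each of the 12 libraries. Cd63 is the largest part of every bar, Upk1b is visible only in C18-4 bars, and the Cd63 part is largest in TM4 shNC replicates 1 and 2, at 56.1% and 56.9%.

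Below Cd63 the order of the members differed between the lines. In C18-4 shNC libraries Cd81 had a mean of 123 RPKM ± 11.6 (SD, n = 3) and Cd151 of 111 ± 6.90, with overlapping ranges. They were followed by Cd9 at 74.1 ± 3.72 and Tspan3 at 73.1 ± 1.72, whose ranges also overlapped. Tspan4, which marks migrasomes, was at 34.8 ± 4.12. Cd82 at 22.9 ± 5.75 and Tspan9 at 16.7 ± 1.96 overlapped in range, and Tspan5 was lowest at 11.2 ± 1.74. In TM4 shNC libraries Cd9 was second to Cd63, at 158 ± 43.2, and its range overlapped that of Cd81 at 118.5 ± 25.8. Tspan4 came next at 68.0 ± 4.75, then Tspan3 at 50.5 ± 8.56 and Cd151 at 45.7 ± 14.2 with overlapping ranges, then Tspan9 at 21.1 ± 8.56 and Tspan5 at 11.3 ± 0.770. Cd82 was the lowest of the 9 there, at 7.40 ± 1.06. With shM5 the ranges of Cd81 and Cd151 no longer overlapped in C18-4 cells, nor did those of Cd9 and Cd81 in TM4 cells.

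**Figure D2:**
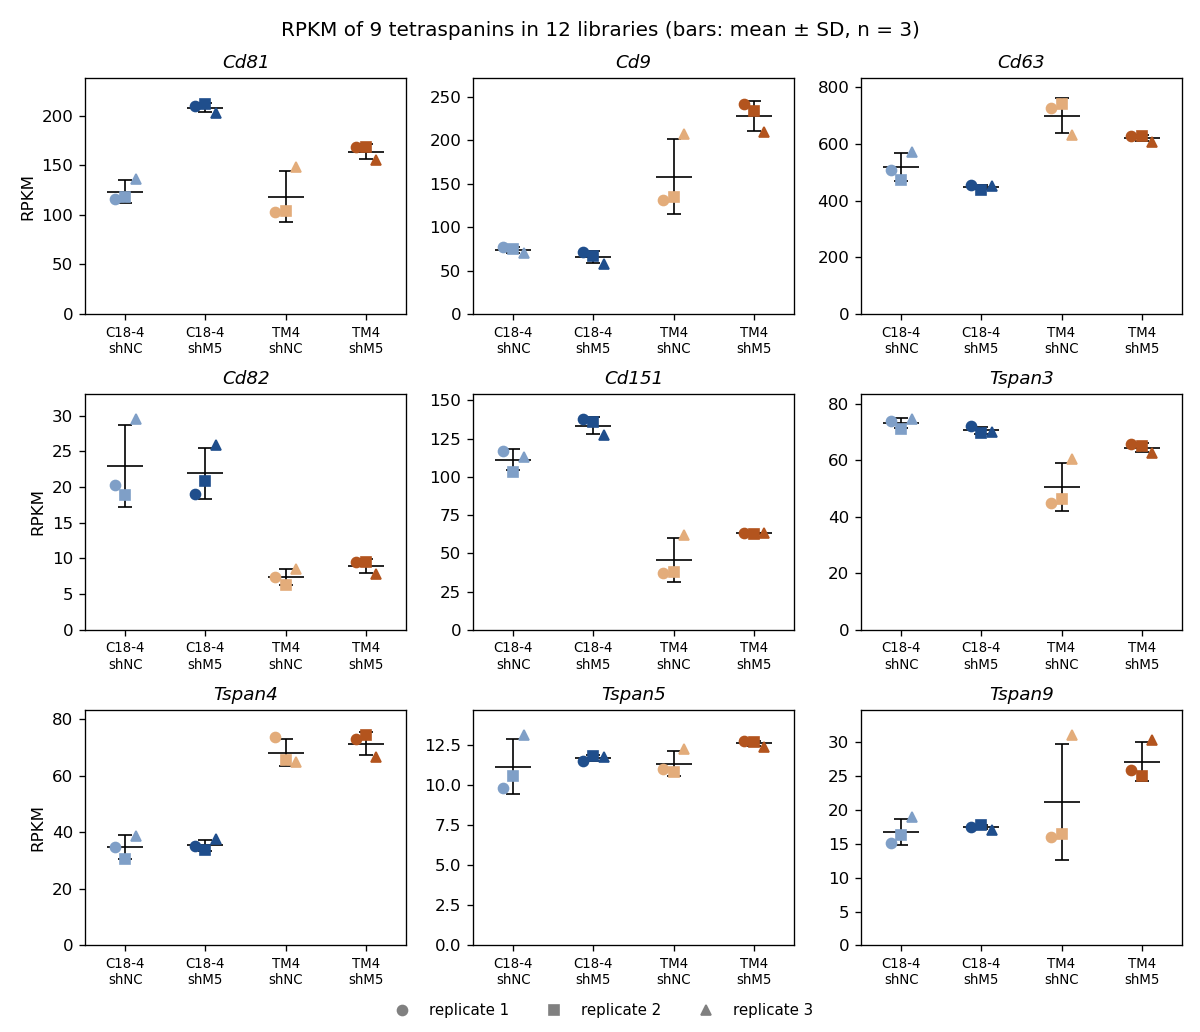
RPKM (y axes, linear, from 0) of the 9 tetraspanins in the 4 groups of 3 libraries, with symbols for replicate numbers and bars for mean ± SD. Cd81 is near 210 in all 3 C18-4 shM5 libraries and between 116 and 137 in the shNC libraries, and in TM4 cells shNC replicate 3 lies near the shM5 libraries for most members.

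Cd81 was the member with the largest difference after shM5 treatment of C18-4 cells. It was at 116, 118 and 137 RPKM in the shNC libraries and at 209.6, 212 and 203 RPKM in the shM5 libraries. Every shM5 library was thus above every shNC library. The log2 difference was 0.76 with an SE of 0.08 and a 95% interval of 0.57 to 0.95, a ratio of means of 1.69. It lay between 0.71 and 0.84 when any single library was left out, and at 0.85 without replicate 3 of both groups. The call given below was lost when any library other than shNC replicate 3 was left out.

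Cd151, the partner of laminin-binding integrins, was at 117, 103.4 and 113 RPKM in shNC and at 138, 136 and 127 in shM5 libraries of C18-4 cells. The groups did not overlap, and the log2 difference was 0.27 (SE 0.07). Cd63 was at 507, 474 and 571 RPKM without and at 455, 439 and 452 with shM5, again without overlap, and its log2 difference was -0.20 (SE 0.08). Cd9 was at 77.3, 74.9 and 70.02 RPKM in shNC and at 71.4, 66.8 and 57.7 in shM5 libraries, with overlap between the groups. Its log2 difference was -0.19 with a 95% interval of -0.41 to 0.04. So Cd81 and Cd9, which share partners, lay on opposite sides of 0 in this line.

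The other members of C18-4 cells lay closer to 0, and their groups overlapped. Cd82 was at 20.3, 18.9 and 29.5 RPKM in shNC and at 19.0, 20.8 and 25.9 in shM5 libraries, with the highest value in replicate 3 of each group. The log2 differences were -0.05 for Cd82 (95% interval -0.49 to 0.40), -0.05 for Tspan3 (-0.19 to 0.09), 0.03 for Tspan4 (-0.21 to 0.27), 0.08 for Tspan5 (-0.21 to 0.36) and 0.06 for Tspan9 (-0.17 to 0.30). Libraries with the same number deviated together in C18-4 cells, and the fit with a replicate block narrowed the intervals. The fit without the block called 1 of 9 members, Cd81, at an adjusted p below 0.05, beside 0.586% of 11611 genes tested (68 genes). The fit with the replicate block called 3 of 9, Cd81 and Cd151 as higher and Cd63 as lower, beside 11.9% of the genes (1386). The 3 members without overlap between groups stood beside 18.9% of all genes tested. The members' differences had entered the choice of the genes, and nothing is read from these counts. The median log2 difference was 0.03 over the 9 members and 0.00 over all genes tested.

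**Figure D3:**
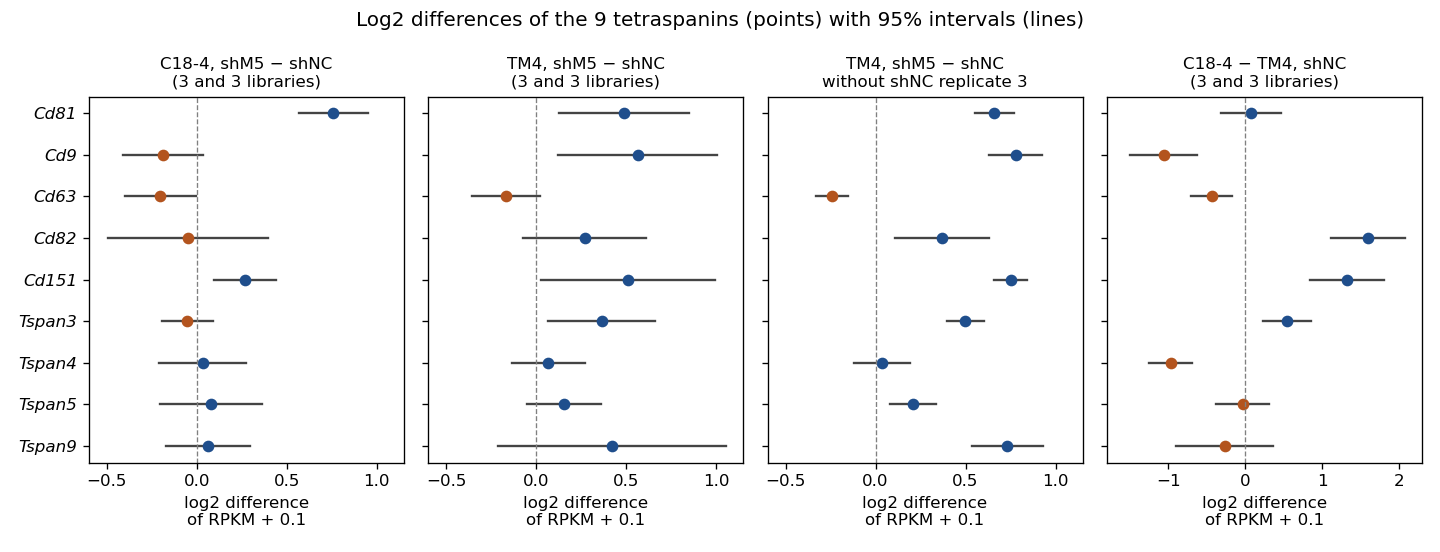
Log2 differences of RPKM + 0.1 (x axes) for the 9 tetraspanins, with points for estimates (blue above 0, orange below) and lines for 95% intervals, from limma. Cd81 stands at 0.76 in C18-4 cells, and in TM4 cells the intervals narrow and most estimates move away from 0 when shNC replicate 3 is left out.

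In TM4 cells the difference between shM5 and shNC depended on which control libraries were taken. Cd9 was at 132, 134 and 208 RPKM in shNC and at 242, 234 and 209 RPKM in shM5 libraries, so that shNC replicate 3 lay within 2 RPKM of shM5 replicate 3. Cd81 was at 103.4, 104 and 148 RPKM in shNC and at 168, 168 and 156 in shM5 libraries. Cd151 was at 37.0, 37.9 and 62.0 without and at 63.4, 62.8 and 63.2 with shM5. In each of these genes shNC replicates 1 and 2 were low and the other 4 libraries were close together. Tspan3 showed the same arrangement, at 44.9, 46.2 and 60.3 RPKM in shNC and at 65.7, 65.1 and 62.5 in shM5 libraries. Tspan9 did so too, at 15.99, 16.4 and 31.0 in shNC and at 25.8, 25.0 and 30.3 in shM5 libraries, with shNC replicate 3 the highest of all. Cd63 ran the other way, at 728, 742 and 629.97 in shNC and at 628, 628 and 608 in shM5 libraries.

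Over all 6 TM4 libraries the log2 differences were 0.56 for Cd9 (SE 0.18), 0.49 for Cd81 (SE 0.15), 0.51 for Cd151 (SE 0.20), 0.36 for Tspan3 (SE 0.12), 0.42 for Tspan9 (SE 0.26) and -0.17 for Cd63 (SE 0.08). Without shNC replicate 3 they were 0.78, 0.66, 0.75, 0.50, 0.73 and -0.24. With shNC replicate 3 as the only control, a choice made after seeing the data, they were 0.14, 0.14, 0.03, 0.09, -0.20 and -0.02. Tspan4 was at 73.5, 65.6 and 64.9 in shNC and at 73.0, 74.3 and 66.5 RPKM in shM5 libraries, and its log2 difference was 0.07, 0.04 and 0.13 under these choices. Tspan5 gave 0.15, 0.21 and 0.04, and Cd82, at 7.42, 6.33 and 8.45 without and 9.46, 9.49 and 7.79 RPKM with shM5, gave 0.27, 0.37 and 0.07.

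The fit of all 6 TM4 libraries called 0 of 9 members and 0% of 11016 genes tested, while 2866 had an unadjusted p under 0.05. Without shNC replicate 3 it called 8 of 9 members, 7 higher and Cd63 lower, beside 67.4% of 11026 genes (7433). With shNC replicate 3 as the only control it called 0 members and 0% of 10974 genes, 528 of them at an unadjusted p below 0.05, and the lone control was assumed to vary like the shM5 group. Values of 6 members did not overlap between the groups, beside 26.8% of all genes tested. The median log2 difference was 0.36 over the 9 members and 0.04 over all genes. The ATF4-response sums given above move with the same split of the control libraries, and their part in these differences was not tested.

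**Figure D4:**
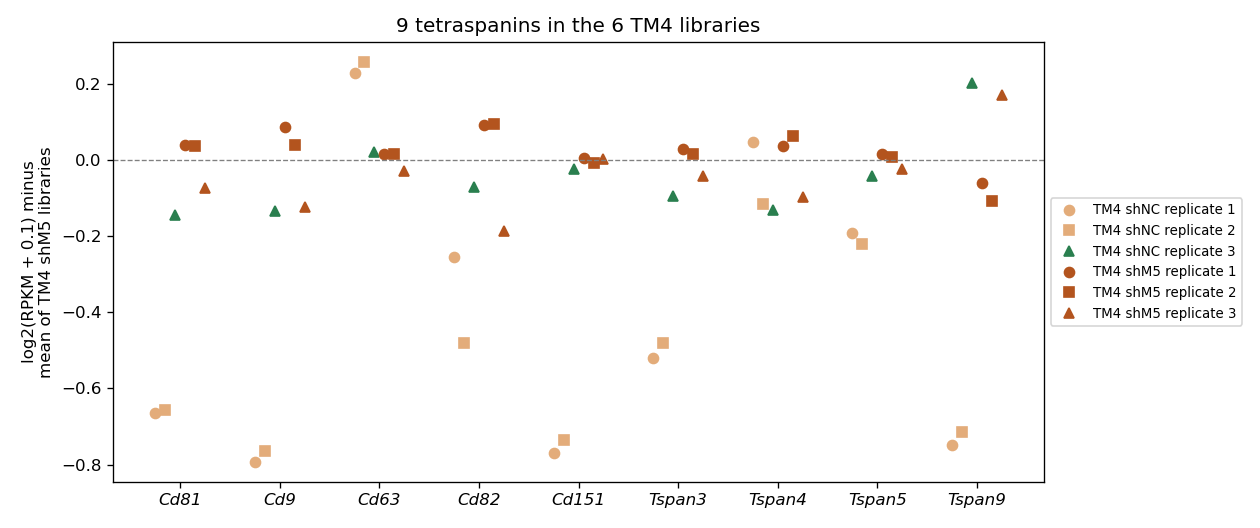
log2(RPKM + 0.1) of the 9 tetraspanins in each TM4 library minus the mean of the 3 TM4 shM5 libraries (y axis). For Cd9, Cd81, Cd151, Tspan3 and Tspan9 shNC replicates 1 and 2 lie between -0.48 and -0.79, while shNC replicate 3 lies between -0.14 and 0.20.

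The shM5 differences of the lines were compared in 1 fit of all 12 libraries, as the difference in C18-4 cells minus that in TM4 cells. Cd9 gave -0.75 (SE 0.22), with shNC and shM5 means of 74.1 and 65.3 RPKM in C18-4 cells and of 158 and 229 in TM4 cells. Tspan3 gave -0.42 (SE 0.14), Tspan9 -0.36 (SE 0.30), Cd82 -0.32 (SE 0.26), Cd81 0.27 (SE 0.18) and Cd151 -0.24 (SE 0.22). The remaining members lay between -0.07 and -0.03. The fit called 0 of 9 members beside 0.102% of 11773 genes tested (12), or 2 genes with the replicate block, while 2463 genes had an unadjusted p under 0.05. Without TM4 shNC replicate 3 it called 4 members, Cd9, Cd151, Tspan3 and Tspan9, beside 38% of 11793 genes (4477). In all 4 the shM5 difference, not the level, was lower in C18-4 cells. With that replicate as the only TM4 control Cd9 gave -0.32, Cd81 0.62 and Cd151 0.24.

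Between the control libraries of the lines, the members diverged in both directions. Cd82 was at 20.3, 18.9 and 29.5 RPKM in C18-4 and at 7.42, 6.33 and 8.45 RPKM in TM4 cells, a ratio of means of 3.10 and a log2 difference of 1.60 (SE 0.20). Cd151 was 2.43 times higher in C18-4 cells, with 103.4 to 117 against 37.0 to 62.0 RPKM. Tspan3 was 1.45 times higher, with 71.1 to 74.4 against 44.9 to 60.3 RPKM. In these 3 genes every C18-4 library was above every TM4 library.

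Cd9 was 2.13 times higher in TM4 cells, with 132 to 208 against 70.02 to 77.3 RPKM, and a log2 difference of -1.06 (SE 0.18). Tspan4 was 1.96 times higher there, with 64.9 to 73.5 against 30.6 to 38.8 RPKM, and Cd63 was 1.35 times higher. Again no library of one line reached the range of the other. Cd81 was at 116 to 137 RPKM in C18-4 and at 103.4 to 148 in TM4 cells, with a log2 difference of 0.07 and a 95% interval of -0.31 to 0.46, which allows a higher level in either line. Between the shM5 libraries of the lines the log2 difference of Cd81 was 0.35. Tspan5 gave -0.03 (SE 0.15) and Tspan9 -0.27 (SE 0.27), with overlapping ranges. At an adjusted p below 0.05 the fit called 6 of 9 members, 3 in each direction, beside 55.2% of 11810 genes. The study's stricter cutoffs are an adjusted p up to 0.001 and a log2 difference of 1 or more in size. Applied to this limma fit, they left 1 member, Cd82, beside 19.2% of genes. The call of Cd63 was lost without C18-4 shNC replicate 1 or 2 or TM4 shNC replicate 1 or 2, where its log2 difference lay between -0.42 and -0.38. The 6 members without overlap stood beside 63.6% of genes. With the shM5 libraries in place of the shNC libraries, also chosen after seeing the data, 8 were called beside 71.5% of 11737 genes, and the log2 difference was 0.13 for Tspan3 and -1.81 for Cd9.

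Among the other tetraspanins, some were listed at 0 in 1 of the lines. Upk1b, the uroplakin of bladder epithelium, was at 138, 124 and 105 RPKM in C18-4 shNC and at 128, 126 and 115 in C18-4 shM5 libraries, which made it the third highest tetraspanin of the line by mean in the controls. It was listed at 0 in 5 TM4 libraries and at 0.04 RPKM in shM5 replicate 3. Tspan11 was listed at 0 in all 6 C18-4 libraries and was at 7.63, 6.93 and 24.1 RPKM in TM4 shNC and at 23.6, 24.6 and 21.5 in TM4 shM5 libraries. Tspan11 is the neighbour of Tspan9, 7418 bases away. In TM4 cells both were low in shNC replicates 1 and 2, as were Cd9, Cd81, Cd151 and Tspan3. In C18-4 shNC libraries Tspan9 had a mean of 16.7 RPKM while Tspan11 was listed at 0. Cd151 and Tspan4, 3766 bases apart, differed between the lines in opposite directions. A link to position was not tested. Tspan7, a neuronal tetraspanin, was at 21.8, 23.9 and 26.6 RPKM in C18-4 and at 1.22, 0.74 and 0.95 in TM4 controls, a ratio of means of 24.8. Cd53, a leukocyte tetraspanin, was listed at 0 in C18-4 cells and was at 2.77, 2.21 and 0.27 RPKM in TM4 shNC libraries. Ptprc, the pan-leukocyte marker, was at 0.04 RPKM or less in all 12 libraries.

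Of the 21 other tetraspanins 14 could be tested between the lines, and 8 of these reached a mean of 0.5 RPKM in 1 line only, so that they had to differ. The 8 were Upk1b, Tspan11, Cd53, Tspan2, Tspan17, Tspan33, Rom1 and Tspan13, of which all but Tspan11 and Cd53 were higher in C18-4 cells. Tspan2 had means of 6.31 and 0.44 RPKM and Tspan17 of 3.99 and 0.267 RPKM in C18-4 and TM4 controls. Tspan33 had means of 5.397 and 0.487 RPKM, Rom1 of 2.24 and 0.437, and Tspan13 of 1.64 and 0.347. Of the 6 that reached the minimum in both lines 5 were higher in C18-4 cells at an adjusted p below 0.05. Of all 11810 genes tested 55.2% were called, 4095 of them higher in C18-4 cells. These were Tspan7 (log2 difference 4.52, SE 0.20, adjusted p 2.29e-06), Tspan12 (2.14, SE 0.21), Tspan15 (1.38, SE 0.16), Upk1a (0.82, SE 0.24) and Tspan14 (0.51, SE 0.17). Upk1a, at about 1 RPKM, went to -0.43 under quantile normalization, and the calls of Upk1a and Tspan14 were also lost when libraries were centred on their median. Tspan31, whose exons overlap Cdk4 on the opposite strand, was at 98.2 to 111 RPKM in C18-4 and 94.7 to 118 in TM4 controls, with a log2 difference of -0.08 (SE 0.12). Quantile normalization moved the median over all genes from 0.15 to -0.01 and the genes called higher and lower from 4095 and 2422 to 3281 and 3357. In that setting 8 of the 14 other tetraspanins were called higher in C18-4 cells, against 11 as deposited, and 2 were lower in each. Tspan10 had no row, and Tspan1, Tspan8, Tspan18, Tspan32, Cd37 and Prph2 stayed under the minimum.

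**Figure D5:**
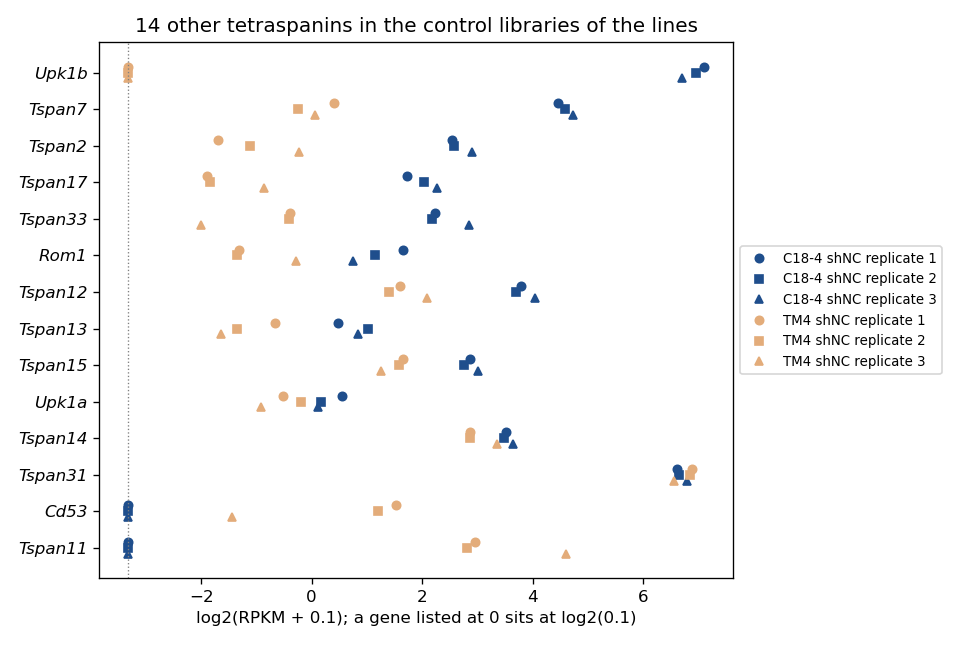
log2(RPKM + 0.1) (x axis) of the 14 other tetraspanins tested between the lines, in the 3 shNC libraries of C18-4 and of TM4 cells, ordered by their difference. Upk1b at the top is at 105 to 138 RPKM in C18-4 cells and 0 in TM4 cells, and Tspan11 at the bottom is at 0 in C18-4 cells.

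After shM5 treatment 0 of 12 other tetraspanins passed the test in C18-4 cells and 2 had an unadjusted p below 0.05 (1425 of all 11611 genes did). With the replicate block 2 passed, beside 11.9% of all genes. Tspan33, another Adam10 escort, fell by 0.66 on the log2 scale (SE 0.09 with the block). It went from 4.6, 4.44 and 7.15 RPKM to 2.88, 2.62 and 4.72. Each shM5 library was below the shNC library of the same number, but the groups overlapped. Tspan12, a coreceptor component of Norrin signalling, rose by 0.31 (SE 0.07), from 13.7, 12.9 and 16.4 to 18.1, 16.9 and 17.97 RPKM. In TM4 cells 0 of 10 passed and 1 had an unadjusted p below 0.05 (2866 of all 11016 genes did). Without shNC replicate 3 the count was 7 of 11, near the 67.4% of all genes called and thus no result about the list.

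Among the proteins that tetraspanins bind, 0 of 16 tested genes passed after shM5 treatment of C18-4 cells, 6 had an unadjusted p below 0.05 (1425 of all 11611 genes did), and 7 passed with the replicate block, beside 11.9% of all genes. SEs of these 7 genes are from the fit with the block. Integrin beta 1, Itgb1, was higher by 0.24 (SE 0.04) on the log2 scale. It was at 269, 269.6 and 273 RPKM in shNC and at 324, 326 and 311 in shM5 libraries. Hbegf, the growth factor precursor that Cd9 binds, was higher by 0.41 (SE 0.07), with 9.06, 8.76 and 9.05 RPKM against 11.9, 12.5 and 11.5. The other 5 were lower. Ptgfrn, the partner of Cd9 and Cd81, had 8.30, 8.38 and 8.39 RPKM in shNC and 6.09, 6.32 and 5.03 in shM5 libraries, with a log2 difference of -0.52 (SE 0.09). Ifitm3, an antiviral membrane protein, gave -0.54 (SE 0.05), and Adam10 gave -0.42 (SE 0.06). Cd47 and Mmp14 gave -0.26 each, with SEs of 0.07 and 0.06. Igsf8 was at 18.8, 19.4 and 24.2 without and 21.4, 21.2 and 19.6 RPKM with shM5.

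In TM4 cells 0 of 15 partner genes passed, 5 of them at an unadjusted p below 0.05 (2866 of all 11016 genes were). Ptgfrn followed the arrangement of Cd9, with 18.7, 19.3 and 41.1 RPKM in shNC and 47.1, 48.8 and 43.0 in shM5 libraries. Without shNC replicate 3 the count was 10 of 15, 8 higher and 2 lower, with the background of 67.4% of genes given above.

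Between the control libraries of the lines 14 of 16 partner genes passed, 6 higher in C18-4 cells and 8 lower, beside 55.2% of all 11810 genes, and Epcam was among them only through C18-4 cells, since it was listed at 0 in TM4 cells. Itga3, the integrin subunit that binds Cd151, was 4.36 times higher in C18-4 cells, at 76.0 to 83.0 against 13.9 to 25.5 RPKM (log2 difference 2.17, SE 0.23, adjusted p 0.000224). Itga6, another laminin-binding subunit, was 3.58 times higher in TM4 cells, at 17.5 to 18.7 against 4.87 to 5.21 RPKM (adjusted p 1.23e-05). Itga7 was 4.42 times higher in C18-4 cells, and Itgb1, their shared partner, was at 269 to 273 in C18-4 and 341 to 359 RPKM in TM4 cells. Ifitm3 was 4.12 times and Ptgfrn 3.16 times higher in TM4 cells. Cd44 was 2.42 times and Hbegf 2.13 times higher there, and Ifitm2, at means of 361 and 204 RPKM, was also higher in TM4 cells. Of the proteases and enzymes, Adam17 was 2.18 times, Adam10 1.82 times and Zdhhc2, a palmitoyltransferase of Cd9 and Cd151, 1.97 times higher in C18-4 cells. Thus the integrin subunits that pair with Itgb1 lay on both sides of the comparison, as the tetraspanins did.

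Of the machinery of extracellular vesicles, which carry Cd63, Cd9 and Cd81, 12 of 20 genes tested passed between the lines, 6 in each direction, a share near the 55.2% of all genes called and thus no result about the list. Smpd3, the neutral sphingomyelinase of ceramide-driven vesicle release, was at 7.56 to 8.33 RPKM in C18-4 and at 0.11 to 0.26 in TM4 controls (log2 difference 4.92, SE 0.23, adjusted p 3.12e-06). Rab27a, which docks endosomes at the membrane, had means of 1.84 and 0.327 RPKM, and these 2 genes reached the minimum in C18-4 cells only. Sdc4 was 2.37 times, Pld2 1.96 times, Hgs 1.48 times and Vps4a 1.44 times higher in C18-4 cells. Stam was 2.48 times, Sdcbp, the syntenin that links syndecans to Cd63, 1.57 times, Sdc1 1.46 times and Pdcd6ip (Alix) 1.39 times higher in TM4 cells. Tsg101 and Chmp4b, also among the abundant genes of the list, did not pass, at means of 65.9 and 56.5 RPKM and of 107 and 100.6 RPKM in C18-4 and TM4 cells. Rab11a and Rab7, small GTPases of recycling and late endosomes, were the other 2, and Rab7, at means of 253 and 311 RPKM, lost its call under 8 of 16 alternatives. After shM5 treatment 0 of 20 genes passed in C18-4 cells, 2 at an unadjusted p below 0.05 (1425 of all 11611 genes were). With the replicate block 2 passed, beside 11.9% of all genes, Sdc4 higher by 0.19 (SE 0.04) and Smpd3 at -0.30 (SE 0.07). In TM4 cells 0 of 18 passed, 6 at an unadjusted p below 0.05 (2866 of all 11016 genes were).

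Of 14 endosome and lysosome genes, the compartment of Cd63, 7 passed between the lines, 3 higher in C18-4 cells and 4 lower, again near the 55.2% of all genes called. Ctsb, cathepsin B, was 2.53 times higher in TM4 cells, at 509 to 668 against 214 to 301 RPKM (log2 difference -1.34, SE 0.18, adjusted p 0.00070). Lamp1, Lamp2 and Ctsl were 1.38, 1.49 and 1.26 times higher there, and Tfeb, a regulator of lysosomal genes, was 2.83 times and Scarb2, a lysosomal membrane protein, 1.70 times higher in C18-4 cells. Ctsd, at means of 179 and 168 RPKM, did not pass. The calls numbered 3 without TM4 shNC replicate 1 and 4 without TM4 shNC replicate 2 or either of C18-4 shNC replicates 1 and 2. Thus Lamp1, Lamp2, Ctsb and Ctsl lay on the same side as Cd63, with higher means in TM4 controls. After shM5 treatment 0 of 14 passed in C18-4 cells, 1 at an unadjusted p below 0.05 (1425 of all 11611 genes were). With the replicate block 1 of 14 passed, beside 11.9% of all genes. This was Ctsb at -0.38 (SE 0.08), with 215, 214 and 301 RPKM in shNC and 185, 177 and 192 in shM5 libraries. In TM4 cells 0 of 14 passed, 3 at an unadjusted p below 0.05 (2866 of all 11016 genes were).

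The genes whose log2 levels followed Cd9 most closely over the 12 libraries, among 11773 genes, were Ifitm2 (Pearson's r 0.996), Ldha (0.996) and Ptgfrn (0.995). Their means increased in the order C18-4 shM5, C18-4 shNC, TM4 shNC and TM4 shM5, the order of Cd9 itself. For Ldha they went from 407 over 463 and 1096 to 1637 RPKM. Genes picked by likeness to Cd9 would largely share its order, so the order is no further result. Those most like Cd81 were Cdca4 (0.965), Meis1 (0.949) and Tusc3 (0.947). Tusc3 had means of 73.3 and 92.2 RPKM in C18-4 shNC and shM5 libraries and of 66.1 and 77.9 in the TM4 groups. The 12 libraries fall into 2 lines and 4 groups, so these likenesses are descriptions of group levels.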

How the data were processed

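The 12 libraries were RNA-seq libraries of C18-4 and TM4 cells, 3 for each of shNC and shM5, and were grouped by the labels. The deposited values are RPKM, given with 2 decimals. The authors selected mRNA by oligo(dT), read it on a HiSeq instrument, aligned reads to reference genes (SOAPaligner) and scaled read numbers to gene length and library size. Genome build and annotation are not given in the sources used here. Read numbers are not kept in RPKM. The value of 1 read, seen in 67 low genes as steps that were whole multiples within 10%, had relative sizes of 0.962 to 1.03 across libraries, so the libraries were of similar depth.

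log2(RPKM + 0.1) was analysed for genes averaging 0.5 RPKM or more in a fit's libraries, with limma (version 3.58.1, R 4.3.3), with eBayes, a mean-variance trend and Benjamini-Hochberg adjustment over all genes of the fit. Fold changes on this scale understate the change of low genes, and ratios of means are given as such. A gene was called at an adjusted p below 0.05. The study's threshold (adjusted p up to 0.001, log2 difference of 1 or more in size) was counted beside it. The study used this threshold with DEGseq for shM5 against shNC, so these counts are not comparable with its own. The fit was tested on simulated data with independent noise of a common spread for all genes. The simulation held no shift of single replicates, so it does not check the calls against the shifts described above. Each line was fitted on its own, and the lines were compared in shNC libraries and, for the shM5 differences, in 1 fit of 12. All 12 value columns were used. Same-numbered C18-4 libraries deviated together from their group means (correlations across genes of 0.439, 0.409 and 0.631). Crossed pairs of replicates 1 and 2 gave 0.341 and 0.345, and pairs of replicate 3 with replicate 1 or 2 gave -0.514 to -0.467. The pattern was thus largely replicate 3 against replicates 1 and 2. The fit with the replicate block is given beside the C18-4 results where it changed a call. For C18-4 genes of the other lists that passed only with the block, SEs are from that fit. SEs of the members are from the fit without it. The sources used here do not say that same-numbered libraries were paired.

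The members and the lists (other tetraspanins, partners, vesicle machinery, endosome and lysosome) were chosen with earlier results of these data known. All members are named. From each list, genes passing the test are named, up to the 10 largest log2 differences, and up to 5 genes averaging 50 RPKM or more in a group. A gene that meets this rule is not reported here. Genes passing with the replicate block were named by the same criterion. The 3 genes most like Cd9 and Cd81 were taken by Pearson correlation. Tspan14, Tspan15, Upk1a, Adam10 and Rab11a between the lines and the genes of other cell types were named after their values were seen. Positions and coding sequences came from GENCODE M21 (GRCm38), with the best-ranked coding transcript of each gene.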

Additional observations from a re-analysis of the deposited data

How the results depend on the processing

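The members called with all libraries (Cd81 in C18-4 cells and 6 between the lines) kept their direction under each alternative run, while counts of calls changed. Of differences called only without TM4 shNC replicate 3, that of Tspan9 in TM4 cells went from 0.73 to -0.20 with this replicate as the only control, and the difference between the lines' shM5 differences from -0.67 to 0.27 for Tspan9 and from -0.48 to 0.24 for Cd151. In C18-4 cells the 68 genes called (1 member) became 4 (0 members) with no filter on low values, 45 without the mean-variance trend, 143 in 1 fit of all 12 libraries, and 1386 (3 members) with the replicate block. They became 3029 (3 members) without both replicates numbered 3, an alternative added after seeing the data. Leaving out 1 library gave 0 to 237 genes and 0 to 1 member, and Cd81 kept its call only when shNC replicate 3 was left out. In TM4 cells, where the count was 0, leaving out 1 library gave 0 to 7433 genes and 0 to 8 members, the upper values without shNC replicate 3, and removing both replicates numbered 3, likewise added later, gave 8016 genes and 8 members. TM4 libraries did not pair by number (correlations 0.0729, 0.0489 and 0.127), and the replicate block left 0 calls there. In the comparison of the lines the alternatives gave 5 to 8 members and, leaving out 1 library, 5023 to 8153 genes, against 6 and 6517. The difference between the shM5 differences of the lines was called in 12 genes, and in 27 with a pseudocount of 1, 21 with no filter, 57 after quantile normalization, 23 after centring on the median, 22 without the trend, 2 with the replicate block, 0 with shNC replicate 3 as the only TM4 control (added after seeing the data) and 0 to 4477 (0 to 4 members) leaving out 1 library. Upk1a between the lines went from 0.82 to -0.43 under quantile normalization. The cause of these changes was not tested. The block changed no other call of the members than those given, apart from Cd63 between the lines, which lost its call. In that comparison, where numbers do not pair the samples, the block gave 9 vesicle genes against 12 and 3 lysosome genes against 7. Read numbers are unknown, so sampling error at low RPKM cannot be given, and 3 libraries a group limit the precision of every difference.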

Other observations

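Tm4sf1 belongs to the L6 family, whose proteins also cross the membrane 4 times but which are not tetraspanins. Of 5 L6 genes it was the one that could be tested. It was at 96.1, 88.6 and 74.0 RPKM in C18-4 shNC and at 109, 98.7 and 58.7 in C18-4 shM5 libraries, with replicate 3 the lowest of each group. In TM4 cells it was at 169, 166 and 274 RPKM in shNC and at 292, 296 and 246 in shM5 libraries, so that shNC replicates 1 and 2 were the low ones. Between the control libraries it was 2.36 times higher in TM4 cells (log2 difference -1.20, SE 0.21, adjusted p 0.00293 with limma). Tm4sf4, Tm4sf5, Tm4sf19 and Tm4sf20 were at 0.47 RPKM or less in every library.

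The tetraspanin sum without Cd63 was 774, 742 and 797.5 RPKM in C18-4 shNC and 875, 864 and 852 in C18-4 shM5 libraries. In TM4 cells it was 570.4, 561 and 734.5 in shNC and 809, 800.4 and 746 in shM5 libraries. The sums of all 29 tetraspanins overlapped between the groups in both lines. The groups of the sum without Cd63 did not overlap in either line, and no test was made. In C18-4 cells most of the difference in this sum was that of Cd81, at means of 123 RPKM in shNC and 208 in shM5 libraries. It is therefore not read as a rise across the family. In TM4 cells shNC replicate 3, at 734.5, lay close to shM5 replicate 3, at 746.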
